A study of Mus musculus with 6 samples.

Results

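Chemokines and their receptors were read in mouse liver as every row of the deposited count table whose gene symbol begins with Ccl, Cxcl or Cx3c, or is a numbered Ccr, Cxcr or Ackr gene, Xcl1 or Xcr1. The rule used symbols and no measured value, and found 54 of 16603 genes: 34 ligands, 17 signalling receptors and 3 atypical receptors. The family itself was chosen with earlier results of these data known. The study compared RNA from whole liver in 3 libraries labelled Mdr2-/- and 3 labelled WT. Mdr2, gene symbol Abcb4, moves phosphatidylcholine from hepatocytes into bile, and mice without it are a model of chronic injury to bile ducts. Tissue and genotype are all that the labels state: strain, age, sex and the allele are not described, nor whether each library is a separate animal. The p-values therefore speak to the spread among the 6 libraries, part of which may be technical. 

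Chemokines are small secreted proteins that steer leukocytes along gradients. They are classed as CC, CXC, CX3C or XC by the spacing of conserved cysteines, and act through G protein-coupled receptors on the migrating cell. Atypical receptors bind the same ligands without the usual G protein signal and remove them. In injured liver, duct cells, stellate cells, sinusoidal endothelium, resident Kupffer cells and incoming monocytes are all known sources, and the Ccl2 and Ccr2 pair is known for bringing in blood monocytes.

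Many chemokine genes lie side by side in the genome, and 3 neighbours on chromosome 5 share a stretch of promoter, printed here because the values of these CXC ligands differed in the size of their change. All sequences are from RefSeq on GRCm38.p6, 300 bases each, with 250 bases before the annotated transcript start and 50 after it. Of the 54 genes, 42 had an entry. Cxcl5, which lies beside these 3 genes, had none, so its promoter was not searched. Capitals mark matches, on either strand, to the NF-kB consensus, to TGANTCA (AP-1), TTCNNNGAA (GAS), the core of the interferon response element (GAAA and, 2 bases on, GAAA again) or TATAAA. Strands are read 5′ to 3′ along the gene.
Cxcl1 (chr5:90890995-90891294, plus strand): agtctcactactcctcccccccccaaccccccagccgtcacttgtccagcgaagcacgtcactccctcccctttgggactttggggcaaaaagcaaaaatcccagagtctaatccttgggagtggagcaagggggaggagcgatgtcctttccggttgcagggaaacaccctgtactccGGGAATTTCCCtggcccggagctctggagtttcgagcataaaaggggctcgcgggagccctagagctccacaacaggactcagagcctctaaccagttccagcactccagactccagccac
Cxcl2 (chr5:90903649-90903948, plus strand): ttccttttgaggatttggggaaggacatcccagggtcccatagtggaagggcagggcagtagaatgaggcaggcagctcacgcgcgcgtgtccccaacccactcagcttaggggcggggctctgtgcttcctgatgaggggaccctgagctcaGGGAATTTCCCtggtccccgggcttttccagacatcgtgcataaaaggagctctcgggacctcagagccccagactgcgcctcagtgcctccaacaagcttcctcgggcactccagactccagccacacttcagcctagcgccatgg
Cxcl3 (chr5:90785851-90786150, plus strand): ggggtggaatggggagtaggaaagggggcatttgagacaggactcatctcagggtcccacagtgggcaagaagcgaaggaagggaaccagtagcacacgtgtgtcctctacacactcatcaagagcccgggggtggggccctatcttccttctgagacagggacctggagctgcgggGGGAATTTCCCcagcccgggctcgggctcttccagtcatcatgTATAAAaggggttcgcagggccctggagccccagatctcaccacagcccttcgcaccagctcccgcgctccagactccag
The run GGGAATTTCCC, 11 bases, began 71, 97 and 73 bases before the start of Cxcl1, Cxcl2 and Cxcl3. The 10-base NF-kB consensus matched at 2 overlapping places inside it in each promoter. That run was present in 14 of 32851 promoters of the same length (0.0426%). It was picked out after the sequences were seen. The NF-kB consensus was found in 12 of 49 promoters of the 42 genes (24.5%), against 8.46% of all promoters. AP-1 stood in 18.4% against 7.81%, GAS in 6.12% against 8.30%, the interferon core in 6.12% against 3.44% and TATAAA in 26.5% against 13.6%. A match is a description of letters and not a site.

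A second trio, on chromosome 8, holds 3 ligands of the CC and CX3C classes, each higher in the labelled Mdr2-/- libraries. Cxcl14, on chromosome 13, is shown with it as the gene with the highest log2 fold change among tested members seen in both groups.
Ccl22 (chr8:94745434-94745733, plus strand): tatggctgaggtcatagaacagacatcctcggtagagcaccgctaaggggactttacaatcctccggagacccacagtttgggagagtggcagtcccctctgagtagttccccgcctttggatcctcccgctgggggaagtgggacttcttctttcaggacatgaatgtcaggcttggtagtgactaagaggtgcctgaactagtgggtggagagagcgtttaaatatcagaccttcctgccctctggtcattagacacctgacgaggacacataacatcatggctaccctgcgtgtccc
Cx3cl1 (chr8:94771930-94772229, plus strand): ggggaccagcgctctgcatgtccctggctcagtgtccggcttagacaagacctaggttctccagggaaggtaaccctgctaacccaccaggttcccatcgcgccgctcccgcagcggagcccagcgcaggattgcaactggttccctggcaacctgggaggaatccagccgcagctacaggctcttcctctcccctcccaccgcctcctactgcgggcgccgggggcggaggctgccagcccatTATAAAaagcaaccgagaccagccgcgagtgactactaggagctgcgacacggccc
Ccl17 (chr8:94810203-94810502, plus strand): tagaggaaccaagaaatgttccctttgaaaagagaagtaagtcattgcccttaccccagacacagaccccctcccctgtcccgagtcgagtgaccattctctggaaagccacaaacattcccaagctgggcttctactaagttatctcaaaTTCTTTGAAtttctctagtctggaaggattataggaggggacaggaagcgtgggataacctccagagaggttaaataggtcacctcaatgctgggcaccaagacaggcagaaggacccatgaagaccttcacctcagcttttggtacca
Cxcl14 (chr13:56296502-56296801, minus strand): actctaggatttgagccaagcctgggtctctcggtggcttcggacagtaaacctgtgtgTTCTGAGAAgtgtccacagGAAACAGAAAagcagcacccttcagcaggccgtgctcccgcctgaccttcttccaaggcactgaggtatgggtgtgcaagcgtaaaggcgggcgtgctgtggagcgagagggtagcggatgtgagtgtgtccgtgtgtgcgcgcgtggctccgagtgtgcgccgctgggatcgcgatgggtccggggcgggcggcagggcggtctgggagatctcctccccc
Ccl22 held none of the motifs in this window, Cx3cl1 held TATAAA, Ccl17 held a GAS match, and Cxcl14 held a GAS match and an interferon core. The GENCODE M21 annotation starts Ccl22 at 94745590 and Cx3cl1 at 94772009, upstream of the RefSeq starts used here. What their windows hold thus depends on the start chosen.

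Library totals ran from 17356571 to 18124467 counts in the labelled Mdr2-/- group and from 17100393 to 17609978 in the labelled WT group, and 3 counts equal 0.149 to 0.156 CPM in labelled Mdr2-/- and 0.189 to 0.192 CPM in labelled WT libraries. CPM are counts scaled to the library size after TMM, a normalization that aligns the bulk of genes between libraries. Across tested genes, libraries of a group correlated at r of at least 0.989 on the log2 scale and libraries of different groups at no more than 0.969; genes are not independent replicates. The targeted gene, Abcb4, stood at 482 ± 42.4 CPM in labelled Mdr2-/- and 324 ± 48.1 CPM in labelled WT livers (SD, n = 3 each; log2 fold change 0.57, edgeR adjusted p = 0.00389). This goes against the label, and neither the allele nor the part of the gene it removes is described. The table's columns carry M and N, and N was read as WT by elimination. Each direction below is therefore that of the labelled libraries. Hepatocyte transcripts dominated as the tissue label says, with Alb at 49467 ± 848 CPM in labelled Mdr2-/- and 85388 ± 4348 CPM in labelled WT livers.

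Of the 54 genes, 31 passed the low-count filter and 23 did not. Among the 31 tested, 17 rose in labelled Mdr2-/- livers (54.8%, where 20.9% of all 12612 tested genes rose), 2 fell (6.45%, where 16.3% of all tested genes fell) and 12 did not pass. Calls in either direction made up 37.1% of all tested genes. Increases of at least 2-fold numbered 16 of 31, against 11.1% of all tested genes, and decreases of that size 0 of 31, against 0.753%. The groups did not overlap in 20 of the 31, against 51.3% of all tested genes. The median log2 fold change was 1.11 over the 31 and 0.01 over all tested genes. A gene that passed the filter through the group where it is high had to differ, so these counts describe the tested genes and not the family. Among the genes that rose, this covers at least Cxcl5, Ccl17, Ccl22, Cxcl2, Ccl2, Ccr1 and Cxcr2. Each had at most 7 counts in any labelled WT library. By class, 6 of 10 tested CC ligands, 4 of 9 CXC ligands, 1 of 1 CX3C ligand, 6 of 8 signalling receptors and 0 of 3 atypical receptors rose. The unadjusted p was under 0.05 for 19 higher and 2 lower members. The share of all tested genes at an unadjusted threshold was not computed, so counts at that threshold have no background here. With total-count scaling, which moved the median of all tested genes to 0.30, 20 members rose and 0 fell, where 47.1% of all tested genes rose and 2.62% fell. At an unadjusted p under 0.05, 0 members were lower in that fit, while DESeq2 kept 2 lower. Of all calls, 56.2% were upward with TMM, 67.2% with upper-quartile and 94.7% with total-count scaling.

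**Figure D1:**
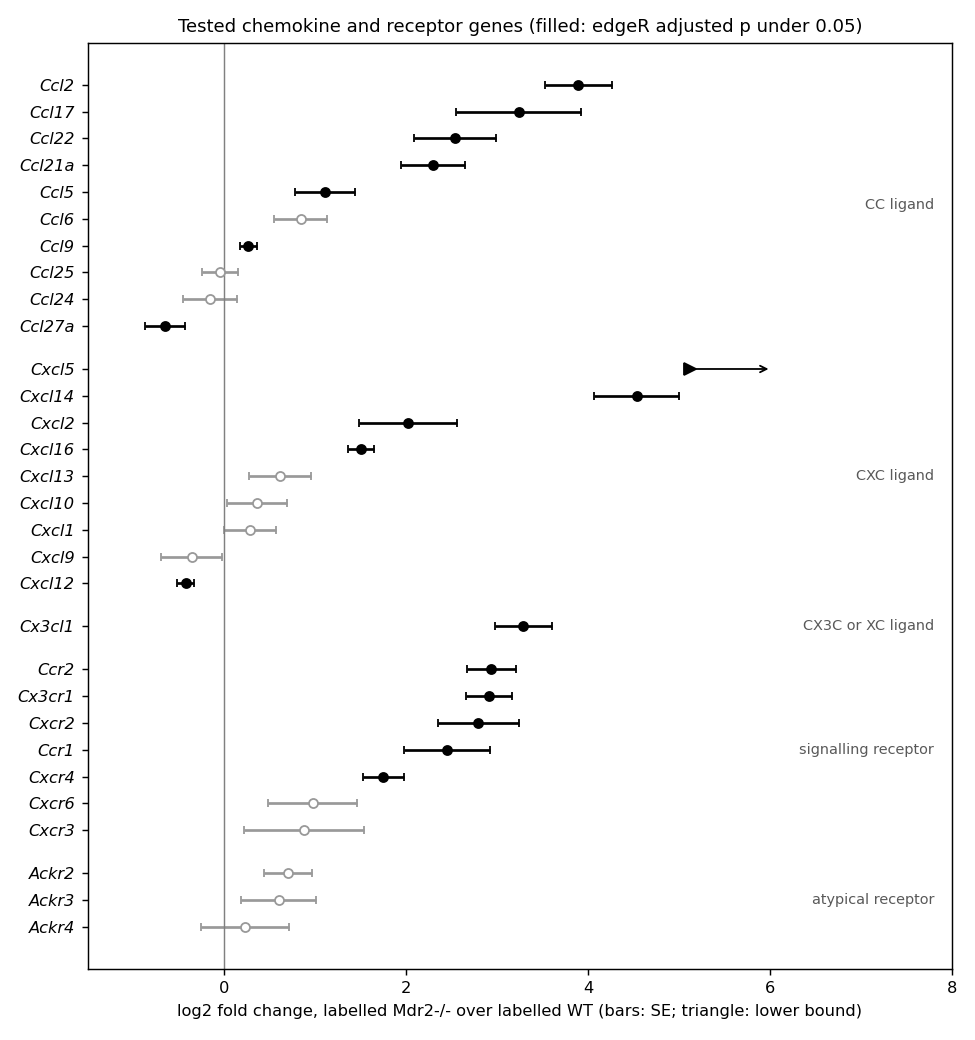
Log2 fold change of 30 of the 31 tested genes, labelled Mdr2-/- over labelled WT, with the standard error as a bar; filled points passed at an edgeR adjusted p under 0.05 and open points did not. Cxcl5 had 0 counts in labelled WT and is drawn as a lower bound at 34.8-fold. Most ligands and signalling receptors lie right of 0, and Cxcl12 and Ccl27a are the filled points left of it.

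The ligand Ccl2 and its receptor Ccr2 both rose. Ccl2, which draws monocytes out of the marrow and into tissue, had 3.47, 4.28 and 3.85 CPM in labelled Mdr2-/- livers, against 0.191, 0.447 and 0.126 CPM in labelled WT livers. Its receptor Ccr2, a mark of inflammatory monocytes, had 7.29, 5.39 and 7.90 CPM in labelled Mdr2-/- livers, against 0.699, 0.702 and 1.26 CPM in labelled WT livers. In neither gene did the groups come near each other. The log2 fold change was 3.89 for Ccl2 (SE 0.37, edgeR adjusted p = 5.17e-05) and 2.94 for Ccr2 (SE 0.27, edgeR adjusted p = 4.92e-05). Ccl2 rested on 12 counts in labelled WT, and without WT replicate 2 its log2 fold change was 4.54. The other mouse ligands of Ccr2 were scarce: Ccl7 had 4, 8 and 1 counts and Ccl12 had 3, 3 and 3 counts in labelled Mdr2-/- livers, and both had 0 counts in each labelled WT liver. Ly6c2, from a separate list of monocyte and macrophage markers, was too low to test. It had 11, 7 and 6 counts in labelled Mdr2-/- livers and 8, 0 and 13 in labelled WT livers, which overlap. In whole tissue, more cells of a type and more RNA per cell cannot be told apart.

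Ccr1, a receptor of monocytes, macrophages and T cells, also rose. Ccr1 had 1.34, 1.41 and 1.51 CPM in labelled Mdr2-/- livers, against 0.0636, 0.255 and 0.442 CPM in labelled WT livers (log2 fold change 2.45, SE 0.47, edgeR adjusted p = 0.00284; 3.09 without WT replicate 3). The groups were apart, and the labelled Mdr2-/- libraries had a coefficient of variation of 5.93%. Among its ligands, Ccl5, made largely by T and NK cells, had 1.19, 1.86 and 1.35 CPM in labelled Mdr2-/- livers, against 0.636, 0.639 and 0.757 CPM in labelled WT livers. Its log2 fold change was 1.11 (SE 0.33, edgeR adjusted p = 0.0238), and the adjusted p was 0.0910, 0.0702 and 0.0752 without Mdr2-/- replicate 2, WT replicate 1 or WT replicate 2. Ccl3, a macrophage product, had 6, 11 and 4 counts in labelled Mdr2-/- livers against 4, 1 and 0 in labelled WT livers, a ratio of 3.35 (counting interval 1.23 to 11.4). Ccl4, its close relative, had 7, 5 and 2 counts in labelled Mdr2-/- livers against 1 in each labelled WT liver.

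Ccl9 and Ccl6, Ccr1 ligands known from rodents and made by macrophages and other myeloid cells, had the highest group means of the CC ligands in both groups. Per length, Ccl21a was above both in Mdr2-/- replicate 3, and Ccl27a was above Ccl6 in WT replicate 1. Ccl9 had 40.3, 41.9 and 35.6 CPM in labelled Mdr2-/- livers, against 30.0, 35.8 and 32.1 CPM in labelled WT livers. The lowest labelled Mdr2-/- library lay just under the highest labelled WT library. Its log2 fold change, 0.27 (SE 0.09), passed at an edgeR adjusted p of 0.0408, but was lost with DESeq2 (adjusted p = 0.0893) and was lost without Mdr2-/- replicate 1 or 2 or WT replicate 1 or 3 (adjusted p from 0.101 to 0.153). Ccl6 had 13.3, 20.5 and 16.5 CPM in labelled Mdr2-/- livers, against 5.59, 10.6 and 11.9 CPM in labelled WT livers. Those ranges do not overlap, but Ccl6 did not pass, at 0.84 on the log2 scale (SE 0.29, edgeR adjusted p = 0.0633). It passed without WT replicate 1 (0.0433), with total-count scaling (0.0145), DESeq2 (0.0042) and limma-voom (0.0295).

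Neutrophil attractants were uneven. Cxcl5, made by epithelial cells and a ligand of Cxcr2, had 47, 49 and 35 counts in labelled Mdr2-/- livers and 0 in each labelled WT liver. With labelled WT set to 3 counts in all, it was at least 34.8-fold higher (edgeR adjusted p = 0.00013). Cxcl5 passed the low-count filter through the labelled Mdr2-/- libraries alone. Cxcl2 had 0.794, 0.806 and 0.520 CPM in labelled Mdr2-/- livers, against 0.0636, 0.255 and 0.189 CPM in labelled WT livers (log2 fold change 2.02, SE 0.54, edgeR adjusted p = 0.0144; 0.0585 without WT replicate 1). Cxcl1, whose promoter carries the same 11-base run, had 9.62, 11.4 and 8.52 CPM in labelled Mdr2-/- livers and 9.35, 4.47 and 10.3 CPM in labelled WT livers. Its groups overlapped, with WT replicate 2 alone well below the rest, and it did not pass (log2 fold change 0.29, SE 0.29, edgeR adjusted p = 0.467; -0.01 without WT replicate 2). Cxcl3, the third gene with the run, had 1, 2 and 2 counts in labelled Mdr2-/- livers and 0 in each labelled WT liver.

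The receptor of these ligands, Cxcr2, had 1.14, 1.51 and 0.987 CPM in labelled Mdr2-/- livers, against 0.191, 0.128 and 0.189 CPM in labelled WT livers. Its log2 fold change was 2.79 (SE 0.45, edgeR adjusted p = 0.00106), with no library between the groups. Cxcr1 had 1, 0 and 3 counts in labelled Mdr2-/- livers and 0 in each labelled WT liver. The neutrophil markers of a separate list stood at a summed 12.3 to 15.1 CPM in labelled Mdr2-/- and 4.32 to 9.15 CPM in labelled WT livers, with 2 of 3 tested higher. Their defining gene Ly6g had 0 counts in all libraries, and 8 of 11 were too low to test. The part of neutrophil number in these values was not tested.

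**Figure D2:**
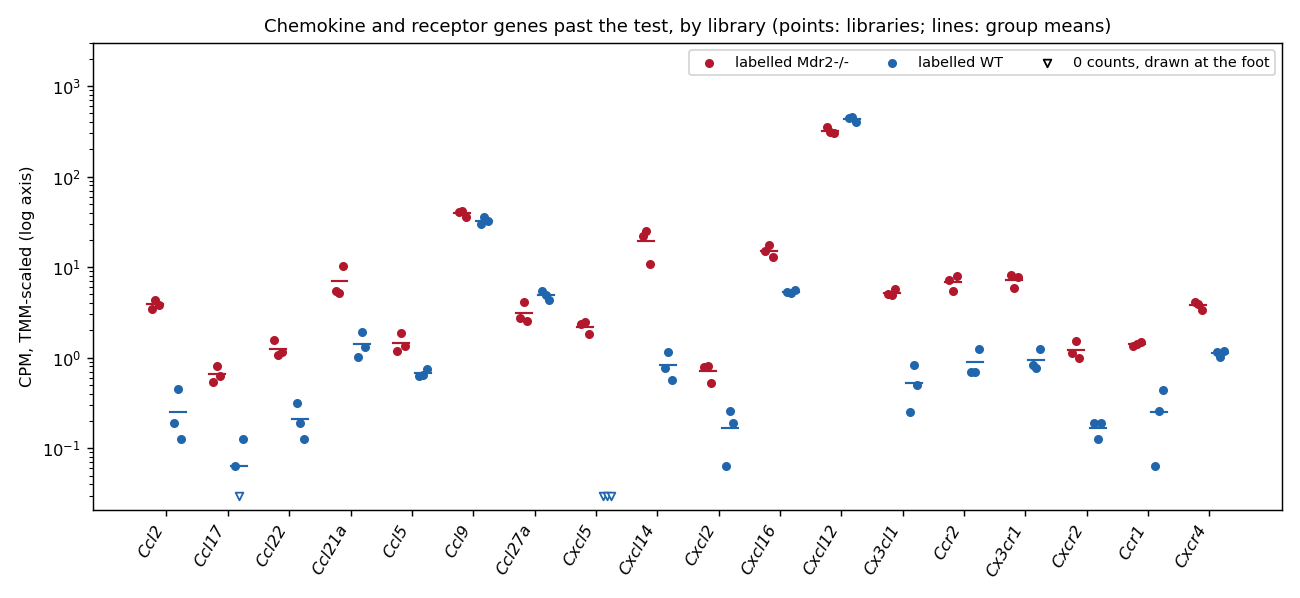
CPM on a log axis in each library for 18 of the 19 genes past the test, labelled Mdr2-/- in red left of labelled WT in blue, with lines at group means. Triangles at the foot are libraries with 0 counts: Cxcl5 has 3 of them and Ccl17 has 1. Cxcl12 lies far above every other gene, and the groups overlap in Ccl9 alone.

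Fractalkine and its receptor rose together. Cx3cl1, a ligand tethered to the surface of epithelial and endothelial cells, had 5.01, 4.93 and 5.77 CPM in labelled Mdr2-/- livers, against 0.254, 0.830 and 0.505 CPM in labelled WT livers (log2 fold change 3.29, SE 0.31, edgeR adjusted p = 5.29e-05). Cx3cr1, carried by monocytes and tissue macrophages, had 8.09, 5.84 and 7.69 CPM in labelled Mdr2-/- livers, against 0.826, 0.766 and 1.26 CPM in labelled WT livers (2.91, SE 0.25, edgeR adjusted p = 2.71e-05). Cx3cr1 had the smallest p of the 31 genes. Both calls held in each of the 14 alternatives.

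The neighbours of Cx3cl1, Ccl22 and Ccl17, are products of dendritic cells and macrophages that act on Ccr4 of T cells. Ccl22 had 1.59, 1.06 and 1.14 CPM in labelled Mdr2-/- livers, against 0.318, 0.192 and 0.126 CPM in labelled WT livers (log2 fold change 2.54, SE 0.45, edgeR adjusted p = 0.00184). Ccl17 had 11, 16 and 12 counts in labelled Mdr2-/- livers against 1, 0 and 2 in labelled WT livers, a ratio of 10.4 with an exact 95% counting interval of 3.29 to 52.4 (edgeR adjusted p = 0.00474; log2 fold change 3.24, and 4.09 without WT replicate 3). Both ligands stayed under 2 CPM in each library, and the receptor Ccr4 was barely seen, with 1 count over the labelled Mdr2-/- and 2 over the labelled WT libraries.

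Cxcl16, a membrane-bound ligand that also takes up lipids, had 14.9, 17.5 and 12.9 CPM in labelled Mdr2-/- livers, against 5.28, 5.17 and 5.55 CPM in labelled WT livers. The labelled WT libraries agreed closely, with a coefficient of variation of 3.68%, and the log2 fold change was 1.5 (SE 0.14, edgeR adjusted p = 5.29e-05). Its receptor Cxcr6, found on liver-resident T and NKT cells, had 0.893, 0.453 and 1.30 CPM in labelled Mdr2-/- livers and 0.318, 0.383 and 0.631 CPM in labelled WT livers. Those groups overlap, and Cxcr6 did not pass (0.97, SE 0.49, edgeR adjusted p = 0.144). Exons of Cxcl16 overlap Zmynd15 on the other strand, and whether counting used strand is not stated, so reads of such pairs cannot be told apart.

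Cxcl12, the homeostatic ligand that holds blood stem cells and lymphocytes in place, moved the other way from most of the family. It had 356, 307 and 303 CPM in labelled Mdr2-/- livers, against 440, 449 and 404 CPM in labelled WT livers. The groups were apart, and the log2 fold change was -0.42 (SE 0.09, edgeR adjusted p = 0.00514). That call depends on the scaling: with total counts the log2 fold change was -0.13 (edgeR adjusted p = 0.279). Its receptor Cxcr4, present on most leukocytes, rose to 4.12, 3.88 and 3.38 CPM in labelled Mdr2-/- livers, against 1.14, 1.02 and 1.199 CPM in labelled WT livers (1.75, SE 0.23, edgeR adjusted p = 0.000334). Ackr3, an atypical receptor that scavenges Cxcl12, had 1.19, 0.856 and 1.92 CPM in labelled Mdr2-/- and 1.14, 0.511 and 0.946 CPM in labelled WT livers, with overlap (edgeR adjusted p = 0.275).

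Cxcl14, an epithelial and stromal chemokine whose receptor is not settled, had 22.2, 24.9 and 10.7 CPM in labelled Mdr2-/- livers, against 0.763, 1.15 and 0.568 CPM in labelled WT livers. Replicate 3 of the labelled Mdr2-/- group was the lowest of that group, yet far above each labelled WT library. The log2 fold change was 4.53 (SE 0.47, edgeR adjusted p = 0.000907) and stayed between 4.30 and 4.83 over 14 alternatives.

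Among chemokines that place lymphocytes, Ccl21a rose. This ligand of Ccr7, made by lymphatic endothelium and stroma, had 5.41, 5.24 and 10.3 CPM in labelled Mdr2-/- livers, against 1.02, 1.92 and 1.33 CPM in labelled WT livers (log2 fold change 2.29, SE 0.35, edgeR adjusted p = 0.00132). Replicate 3 of labelled Mdr2-/- was the highest. The mouse genome holds near-identical copies of Ccl21a, so its count is uncertain. Ccl19, the other Ccr7 ligand, had 7, 7 and 9 counts in labelled Mdr2-/- livers against 2, 0 and 1 in labelled WT livers, 6.11-fold higher (counting interval 1.85 to 31.8). Ccr7 itself had 7, 11 and 7 counts in labelled Mdr2-/- livers and 5, 1 and 3 in labelled WT livers.

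The interferon-induced ligands of Cxcr3, which attract activated T cells, did not pass, nor did Cxcr3. Cxcl9 had 9.92, 5.94 and 4.83 CPM in labelled Mdr2-/- and 12.3, 7.09 and 7.13 CPM in labelled WT livers (log2 fold change -0.36, SE 0.33, edgeR adjusted p = 0.442). Cxcl10 had 3.42, 2.11 and 2.29 CPM in labelled Mdr2-/- and 2.23, 2.75 and 1.14 CPM in labelled WT livers (0.36, SE 0.33, edgeR adjusted p = 0.422). Cxcr3 lay at 0.298 to 1.09 CPM in labelled Mdr2-/- and 0.0636 to 0.694 CPM in labelled WT livers (0.88, SE 0.66; 1.51 without WT replicate 3). All of these overlapped between the groups. Exons of Cxcl10 overlap Art3 on the other strand. Cxcl13, which organises B cell follicles, lay at 1.14 to 1.49 CPM in labelled Mdr2-/- and 0.636 to 1.26 CPM in labelled WT livers and did not pass (0.62, SE 0.34, edgeR adjusted p = 0.18; 0.0455 with total counts). Its receptor Cxcr5 had 3, 7 and 2 counts in labelled Mdr2-/- livers and 3, 0 and 2 in labelled WT livers.

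Among tested chemokines of gut, skin and eosinophils, Ccl25 and Ccl24 changed little and Ccl27a fell. Ccl25, a gut-homing ligand, had 3.77, 3.22 and 4.001 CPM in labelled Mdr2-/- and 3.18, 3.70 and 4.42 CPM in labelled WT livers (log2 fold change -0.04, SE 0.20). Ccl24, which acts on eosinophils through Ccr3, lay at 1.14 to 1.98 CPM in labelled Mdr2-/- and 1.47 to 2.21 CPM in labelled WT livers (-0.15, SE 0.30). Neither passed, and the sign of each turned with total-count scaling. Ccl27a, a skin chemokine, fell to 2.73, 4.08 and 2.55 CPM in labelled Mdr2-/- livers, against 5.40, 4.92 and 4.35 CPM in labelled WT livers (-0.65, SE 0.22, edgeR adjusted p = 0.0404). Its call was lost in 7 of 14 alternatives, among them total-count scaling (0.197) and the fits without Mdr2-/- replicate 1 (0.12) or 3 (0.114) and without WT replicate 1 (0.106) or 2 (0.0912). Ccl27a shares exons with Il11ra1, and Ccl25 with Elavl1, on the other strand.

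No atypical receptor passed. Ackr2, which clears inflammatory CC chemokines, had 2.28, 2.22 and 2.65 CPM in labelled Mdr2-/- livers, against 1.46, 1.79 and 1.14 CPM in labelled WT livers. Its groups did not overlap, while its change of 0.70 on the log2 scale (SE 0.26) missed the threshold (edgeR adjusted p = 0.0573; 0.00966 with total counts). It also passed with upper-quartile scaling (0.045) and with a minimum count of 30 (0.0463), and not in the other 11 alternatives. Ackr4, which clears Ccl19, Ccl21a and Ccl25, had a log2 fold change of 0.23 (SE 0.48) with overlap, and its exons overlap Acad11. Whether atypical receptors changed less than signalling receptors was not tested.

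The 23 genes below the filter had at most 16 counts in any library. Cxcl17 and Ccr8 had 0 counts throughout, which allows up to 0.149 to 0.156 CPM in a labelled Mdr2-/- and 0.189 to 0.192 CPM in a labelled WT library. Of the others, 9 had no count in any labelled WT library, and the share of all untested genes with none was not computed. Every labelled Mdr2-/- library lay above every labelled WT library in 11 of 23, against 19.1% of all untested genes. These are raw counts, and the TMM-scaled library sizes were larger in labelled Mdr2-/- (19244022 to 20160135) than in labelled WT (15658486 to 15848097). Ccl20, which draws Ccr6-bearing cells, had 7, 4 and 3 counts in labelled Mdr2-/- livers and 0 in each labelled WT liver, at least 3.72-fold higher with labelled WT set to 3 counts in all. Ccl8, a Ccr8 ligand in mice, had 9, 2 and 5 counts in labelled Mdr2-/- livers and 0 in each labelled WT liver, at least 4.25-fold higher by the same floor. The gut-homing receptor Ccr9 had 11, 5 and 16 counts in labelled Mdr2-/- livers and 0, 0 and 1 in labelled WT livers. Its ratio was 25.5 (counting interval 4.26 to 1039), and its exons overlap Slc6a20a. Intervals and bounds cover counting error only.

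In the fit without the low-count filter 22 members rose, where 17.3% of all genes rose. The 5 untested genes among them were Ccl7, Ccl8, Ccl19, Ccl20 and Ccr9, with edgeR adjusted p from 0.00552 to 0.0433. Ccr6, the receptor of Ccl20, had 4, 5 and 4 counts in labelled Mdr2-/- livers and 0, 0 and 4 in labelled WT livers. Ccl11, an eosinophil attractant, had 3, 2 and 1 counts in labelled Mdr2-/- livers and 0 in each labelled WT liver. Its receptor Ccr3 had 9, 4 and 8 counts in labelled Mdr2-/- livers and 4, 1 and 6 in labelled WT livers, which overlap. The cross-presenting dendritic cell receptor Xcr1 had 14, 7 and 10 counts in labelled Mdr2-/- livers against 3, 1 and 5 in labelled WT livers, a ratio of 2.75 (counting interval 1.28 to 6.56). Its ligand Xcl1 had 4, 9 and 8 counts in labelled Mdr2-/- livers and 0, 6 and 1 in labelled WT livers. Ccl28, a mucosal chemokine, had 12, 9 and 7 counts in labelled Mdr2-/- livers and 1, 10 and 10 in labelled WT livers. Ccl1 had 1 count in all and Ccl27b had 3, each from a single labelled Mdr2-/- library.

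**Figure D3:**
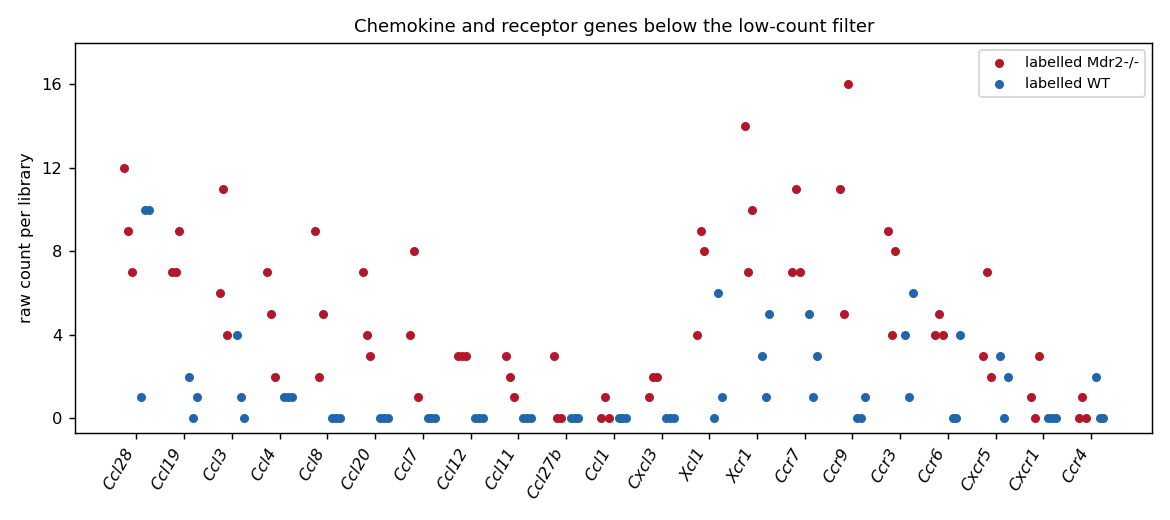
Raw counts per library of the 21 genes below the filter with at least 1 count, labelled Mdr2-/- in red left of labelled WT in blue. The highest point is Ccr9 at 16 counts, and the labelled WT points of Ccl7, Ccl8, Ccl11, Ccl12 and Ccl20 all lie at 0.

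Levels between genes were compared per length with the deposited FPKM, fragments scaled by gene length and library total. These leave out the TMM factors, which were 1.10 to 1.11 in labelled Mdr2-/- and 0.889 to 0.920 in labelled WT libraries. FPKM and their sums therefore stand higher in labelled Mdr2-/-, relative to labelled WT, than TMM-scaled values would. Ligand transcripts summed to 149.5 ± 9.67 FPKM in labelled Mdr2-/- and 96.3 ± 1.28 FPKM in labelled WT livers (SD, n = 3 each). Cxcl12 supplied 33.3 ± 2.93% of that sum in labelled Mdr2-/- livers and 56.5 ± 2.55% in labelled WT livers, with no overlap. A share within a library does not depend on its scaling. Without Cxcl12 the ligand sum was 99.8 ± 8.90 FPKM in labelled Mdr2-/- and 41.9 ± 1.99 FPKM in labelled WT livers. An exact two-sided permutation test gave p = 0.1 for each of these quantities, the smallest that 3 against 3 libraries allow.

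Below the first place the order of the ligands was not the same in the groups, although many neighbours overlapped. In labelled Mdr2-/- livers Cxcl12 (49.7 ± 4.75 FPKM) led and was clear of the next, followed by Ccl9 (14.4 ± 1.15), Ccl6 (12.9 ± 2.67), Cxcl1 (11.4 ± 1.60), Cxcl16 (11.2 ± 1.66), Cxcl14 (10.9 ± 4.23) and Ccl21a (8.92 ± 3.72). Neighbours from Ccl9 to Ccl21a overlapped in level. In labelled WT livers Cxcl12 (54.4 ± 3.07 FPKM) was followed by Ccl9 (9.79 ± 0.727), Cxcl1 (7.64 ± 3.03), Ccl6 (5.86 ± 2.02), Ccl27a (3.36 ± 0.401) and Cxcl16 (3.23 ± 0.135), and of these Cxcl12 alone was clear of the next. Cxcl14 made up 7.18 ± 2.45% of the ligand sum in labelled Mdr2-/- and 0.396 ± 0.136% in labelled WT livers, and Ccl2 made up 3.56 ± 0.386% in labelled Mdr2-/- and 0.295 ± 0.192% in labelled WT livers. Counts were seen for 49 to 50 of the 54 genes in each labelled Mdr2-/- library and 36 to 40 in each labelled WT library. Over the whole table, 15141 to 15152 of 16603 genes had counts in labelled Mdr2-/- libraries and 14277 to 14359 in labelled WT libraries. More genes were thus seen in labelled Mdr2-/- in general.

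Receptor transcripts summed to 13.1 ± 1.32 FPKM in labelled Mdr2-/- and 3.70 ± 0.780 FPKM in labelled WT livers. The receptor FPKM also leave out the TMM factors, so they too stand higher in labelled Mdr2-/-, relative to labelled WT, than TMM-scaled values would. Cx3cr1 stood at 2.13 ± 0.366 FPKM in labelled Mdr2-/- and 0.229 ± 0.0647 FPKM in labelled WT livers, and Ccr2 at 1.61 ± 0.315 FPKM in labelled Mdr2-/- and 0.170 ± 0.0614 FPKM in labelled WT livers. Cxcr4 stood at 1.46 ± 0.146 FPKM in labelled Mdr2-/- and 0.352 ± 0.0319 FPKM in labelled WT livers, and Ackr2 at 0.831 ± 0.0842 FPKM in labelled Mdr2-/- and 0.416 ± 0.0897 FPKM in labelled WT livers. Cx3cr1, Ccr2 and Cxcr4 thus lay above Ackr2 in labelled Mdr2-/-, whereas in labelled WT Ackr2 lay above Cx3cr1 and Ccr2 and overlapped Cxcr4. As shares of the receptor sum, Ccr2 held 12.2 ± 1.42% in labelled Mdr2-/- and 4.49 ± 0.649% in labelled WT livers. Cx3cr1 held 16.2 ± 2.04% in labelled Mdr2-/- and 6.12 ± 0.416% in labelled WT livers. The exact permutation p was 0.1 for each of these shares.

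**Figure D4:**
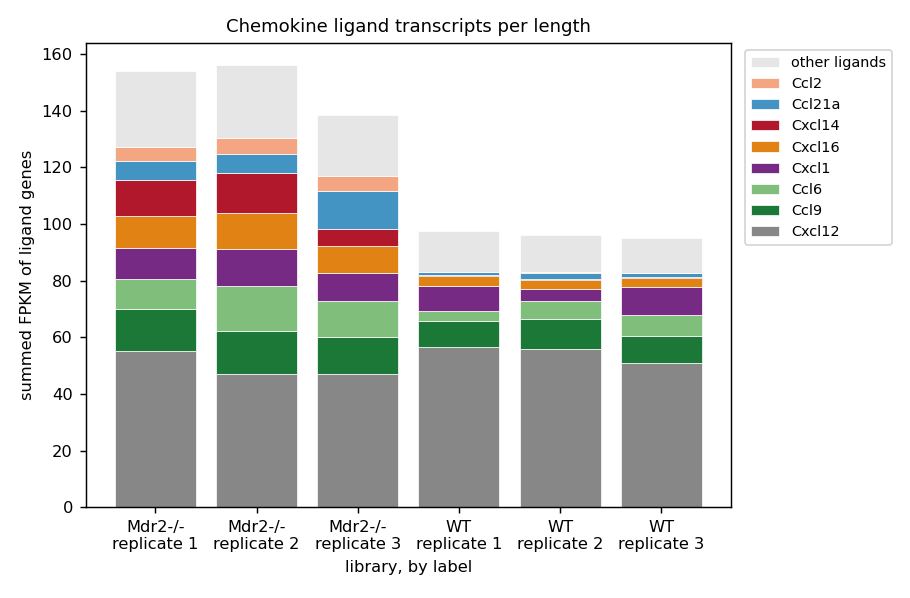
Summed FPKM of the 34 ligand genes in each library, stacked by gene from 0, with 3 labelled Mdr2-/- libraries left of 3 labelled WT libraries. Cxcl12 is the grey base of every bar, about as tall in both groups on this scale, which is set by library totals without TMM. The layers above it are taller in labelled Mdr2-/-, where the sums are 138.4 to 156.2 FPKM, against 95.0 to 97.6 FPKM in labelled WT.

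Read by genome position (GENCODE M21, GRCm38), neighbours did not all move alike. On chromosome 8, from 94745590 to 94812036, Ccl22, Cx3cl1 and Ccl17 all rose. On chromosome 5, from 90759360 to 90905938, Cxcl5 and Cxcl2 rose, Cxcl1 between them did not pass and Cxcl3 was too low to test. Further along chromosome 5, from 92321347 to 92348889, Cxcl9 and Cxcl10 did not pass. The inflammatory CC block on chromosome 11, from 82035571 to 82305690, held Ccl2, which rose, and 5 genes too low to test (Ccl7, Ccl11, Ccl12, Ccl8 and Ccl1). The block that follows, from 83525778 to 83664683, held Ccl5 and Ccl9, which rose, Ccl6, which did not pass, and Ccl3 and Ccl4, too low to test. On chromosome 9, Ccr1 (123962124 to 123968692) and Ccr2 (124101950 to 124113557) rose, Cxcr6 did not pass, and Ccr9, Xcr1 and Ccr3 were too low to test. Among the other genes described, the annotation places Cxcl12 on chromosome 6 (117168535 to 117181367, plus strand), Cxcr4 on chromosome 1 (128588199 to 128592293, minus strand) and Cxcl14 on chromosome 13 (56288643 to 56296551, minus strand). It places Cxcl16 on chromosome 11 (70453983 to 70459984, minus strand), Cxcr2 on chromosome 1 (74153989 to 74161246, plus strand), Cx3cr1 on chromosome 9 (119901616 to 120069879, minus strand) and Ccl21a on chromosome 4 (42772860 to 42773993, minus strand). Some members of a block are close relatives in sequence, and whether reads were split or lost between such genes was not tested.

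Genes downstream of the receptors rose in part. Like the members, this and the other gene lists were chosen with earlier results of these data known. Of 29 tested genes of chemokine receptor signalling, 19 rose, 0 fell and 10 did not pass, where 20.9% of all tested genes rose and 16.3% fell, with a median log2 fold change of 0.77 against 0.01 for all tested genes. Arrb1, an arrestin that ends receptor signalling, rose to 32.3 ± 0.878 CPM in labelled Mdr2-/- livers, against 16 ± 3.03 CPM in labelled WT livers (edgeR adjusted p = 0.000186). The actin regulator Coro1a rose to 8.08 ± 1.06 CPM in labelled Mdr2-/- livers, against 3.56 ± 0.339 CPM in labelled WT livers. Dock2, which activates Rac in leukocytes, rose to 8.19 ± 0.394 CPM in labelled Mdr2-/- livers, against 3.58 ± 0.731 CPM in labelled WT livers. Several of these genes are leukocyte-restricted. Against the same shares, 3 of 7 tested chemokine family genes outside the symbol rule rose and 0 fell: Ccrl2, a non-signalling relative of the receptors (log2 fold change 1.33), Pitpnm3, named in human studies as a CCL18 receptor (2.36), and the receptor gene Gpr35 (1.08).

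Enzymes that trim or shed chemokines rose in 4 and fell in 1 of 9 tested genes, against the same 20.9% higher and 16.3% lower over all tested genes. The protease Mmp2, which cuts Ccl7 and Cxcl12, rose to 23.5 ± 4.02 CPM in labelled Mdr2-/- livers, against 4.21 ± 0.507 CPM in labelled WT livers. Mmp12, the elastase of macrophages, rose to 16.3 ± 2.33 CPM in labelled Mdr2-/- livers, against 0.699 ± 0.505 CPM in labelled WT livers. The aminopeptidase Anpep fell to 157.8 ± 3.47 CPM in labelled Mdr2-/- livers, against 227.1 ± 2.68 CPM in labelled WT livers. Of 19 tested genes of cytokines, Toll-like receptors and the NF-kB pathway, its inhibitors included, 12 rose and 1 fell, with a median log2 fold change of 0.68. Tlr2, a sensor of bacterial lipoproteins, rose to 6.76 ± 1.17 CPM in labelled Mdr2-/- against 1.59 ± 0.210 CPM in labelled WT livers. Tnfaip3, an inhibitor of NF-kB, rose to 14.3 ± 0.476 CPM in labelled Mdr2-/- against 4.05 ± 1.39 CPM in labelled WT livers. The cytokine gene Ltb rose to 2.98 ± 0.425 CPM in labelled Mdr2-/- against 0.444 ± 0.165 CPM in labelled WT livers. Ifng and Lta had 0 counts in labelled Mdr2-/- livers, and 0, 0 and 1 (Ifng) and 1, 0 and 1 (Lta) in labelled WT livers. Il6 had 0, 0 and 1 counts in labelled Mdr2-/- livers and 0 in labelled WT livers. All were too low to test.

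Markers of several cell types differed between the same groups, and their part in the results was not tested. Each count of markers stands against 20.9% of all tested genes higher and 16.3% lower. Monocyte and macrophage markers rose in 11 of 13 tested genes, with a summed level of 547 to 597 CPM in labelled Mdr2-/- and 172 to 316 CPM in labelled WT livers and a median log2 fold change of 1.75. Dendritic cell markers, 2 of which are also members here, rose in 8 of 10, at 306 to 371 CPM in labelled Mdr2-/- and 96.1 to 119.5 CPM in labelled WT livers. Most of that sum was Cd74, H2-Aa, H2-Ab1 and H2-Eb1, class II antigen presentation genes that are not confined to dendritic cells. Cd74 alone stood at 166 ± 17.9 CPM in labelled Mdr2-/- and 49.8 ± 4.97 CPM in labelled WT livers. Clec9a and Zbtb46 did not pass (edgeR adjusted p = 0.145 and 0.802). Cholangiocyte markers rose in 13 of 14, at 430 to 493 CPM in labelled Mdr2-/- and 90.1 to 107.5 CPM in labelled WT livers. Most of that sum in labelled Mdr2-/- was Spp1, at 293 ± 19.2 CPM, against 36.1 ± 8.69 CPM in labelled WT livers. The median log2 fold change of the cholangiocyte markers was 3.22. Stellate cell and fibroblast markers rose in 11 of 14, at 618 to 751 CPM in labelled Mdr2-/- and 254 to 387 CPM in labelled WT livers. Kupffer cell markers rose in 1 of 8 (451 to 601 CPM in labelled Mdr2-/- against 372 to 576 CPM in labelled WT livers). T and NK cell markers rose in 1 and fell in 1 of 5 tested, at 10.1 to 10.96 CPM in labelled Mdr2-/- and 9.92 to 14.1 CPM in labelled WT livers. B and plasma cell markers rose in 1 of 3, at 308 to 314 CPM in labelled Mdr2-/- and 262 to 290 CPM in labelled WT livers, nearly all of it Sdc1, which hepatocytes also express. Endothelial markers rose in 3 and fell in 2 of 12, shares near those of all tested genes, at 491 to 558 CPM in labelled Mdr2-/- and 532 to 546 CPM in labelled WT livers. Erythroid markers rose in 0 and fell in 1 of 5, at 215 to 238 CPM in labelled Mdr2-/- and 206 to 482 CPM in labelled WT livers. Hepatocyte markers rose in 0 and fell in 10 of 12, at 90353 to 94163 CPM in labelled Mdr2-/- against 144986 to 156382 CPM in labelled WT livers. Apart from the neutrophil markers Ly6g (both groups) and Camp (labelled WT), no marker in the table was at 0 counts over a group.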

How the data were processed

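RNA of mouse liver was measured in 3 libraries labelled Mdr2-/- and 3 labelled WT. The authors deposited unnormalized whole-number counts for each symbol, and FPKM for the same genes. The submitters' processing notes list SAMtools, HISAT2, Bowtie2, StringTie, Cufflinks, HTSeq, Trimmomatic and DESeq, and build mm10. The role and version of each tool, the annotation and the use of strand are not given. In 13006 of 13006 genes compared, the deposited FPKM were proportional to counts over library totals within 1%, so they hold the same reads. They were used for levels, sums and shares, with an exact permutation test over libraries for the sums and shares. Columns without a sample numbered 0.

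The count test was edgeR 4.0.16 (R 4.3.3): filterByExpr (minimum count 10, minimum total 15), TMM, a robust quasi-likelihood fit with group as the only term, and Benjamini-Hochberg adjustment over all 12612 tested genes at 0.05. The SE is the absolute log2 fold change over the root of F. Genes below the filter are given as raw counts, with a floor of 3 counts or an exact 95% interval of the ratio (scipy 1.17.1). Alternatives were scaling by RLE, upper quartile or total counts, limma-voom (limma 3.58.1), DESeq2 1.42.0, no filter, a minimum count of 30, leaving out each library and a replicate block. The chi-square over its degrees of freedom was at least 16.8 between replicates, so none is a repeat deposit. All 54 symbols entered the counts; 1 is not reported here by name or value. Per-library values are printed for members past the test and changed at least 2-fold, those averaging at least 10 CPM, and their ligands or receptors; some others are given in full too. Of the pathway lists, the 3 genes with the smallest p are named, plus genes at 0. Cell type marker lists are given as counts and sums, with a few genes named. The members and gene lists were chosen with earlier results of these data known. Sequences are from RefSeq, GRCm38.p6.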

Additional observations from a re-analysis of the deposited data

How the results depend on the processing

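Of the 19 members past the test, 14 stayed past it in each alternative that tested them. Ccl5, Ccl9, Ccl27a, Cxcl2 and Cxcl12 lost the call in at least 1. The number of members that rose was 12 to 22 over the alternatives, which tested different numbers of members. It was 17 of 31 as reported, 12 of 20 with a minimum count of 30 and 22 of 52 without a filter. Of all tested genes, 2634 of 12612, 2295 of 11404 and 2817 of 16277 rose in those fits. When a library was left out, 16 to 17 of 31 to 34 members rose, and 2092 to 2603 of 12731 to 12935 genes. The number that fell was 2 as reported, 1 with upper-quartile scaling, 0 with total-count scaling, 1 with a minimum count of 30, and 1 to 2 when a library was left out. Ccl27a was the gene that missed the threshold with a minimum count of 30 (log2 fold change -0.62, edgeR adjusted p = 0.0504). The cause was not tested. Signs that turned were all of genes that did not pass. Ccl24 gave 0.14 with total counts and -0.33 to 0.0373 without a library, Ccl25 gave 0.0153 with upper-quartile and 0.25 with total-count scaling and -0.16 to 0.0788 without a library, Ackr4 gave -0.0853 to 0.57 and Cxcl1 -0.00926 to 0.50 without a library, all as log2 fold changes. Calls over all genes ran from 3541 to 6273 around 4685. Deviations from the group means correlated at r from -0.07 to 0.10 between same-numbered libraries and from -0.13 to 0.08 between the others. Of 3 labelled Mdr2-/- libraries, 1 correlated best with its own number. So few libraries cannot exclude a pairing, and the labels state none. With the replicate block, 18 members rose, 2 fell and 4568 genes were called, with Ccl6 gaining the call (edgeR adjusted p = 0.00299). Depth limits the 23 untested genes, of which none exceeded 16 counts.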
